A study of Mus musculus with 6 samples.

Results

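The 10 transcription factors and cofactors described here drive Schwann cells (SCs) from the promyelinating stage, at which a cell has taken up a single axon, into myelination. They are Sox10, Egr2 (also called Krox20), Pou3f1 (Oct6), Pou3f2 (Brn2), Nab1, Nab2, Yy1, Nfatc3, Nfatc4 and Zeb2. They were found by gene symbol in a table of 59485 genes, where each of the 10 had 1 row, and all 10 were among the 25802 genes that passed the filter on low values. RNA was measured in sciatic nerves of mice at postnatal day 4 (P4), with 3 control and 3 mutant animals and 1 library per animal. The sample labels give the controls as wild-type and the mutants as Ht-PA-Cre; Adar1fl/fl;R26R. In the study's methods, wild-type means animals without Cre and with Adar1 floxed on a single chromosome or on both, although its text elsewhere also counts Cre-carrying heterozygotes as controls. All groups carried R26R, a reporter allele that marks recombined cells with YFP. HtPA-Cre is a Cre transgene under the promoter of human tissue plasminogen activator, which is active in migrating neural crest (NC) cells and therefore recombines SCs and other NC derivatives, not every cell of the nerve. ADAR1 is an enzyme that converts adenosine to inosine in double-stranded RNA.

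SOX10 is present in the SC lineage from the NC onwards and is needed at each step. Together with POU3F1 and POU3F2, which are transiently expressed at the promyelinating stage, SOX10 switches on Egr2, and EGR2 then activates myelin protein and lipid synthesis genes together with its cofactors NAB1 and NAB2. YY1 links neuregulin signalling to Egr2, NFATC3 and NFATC4 are calcineurin-dependent partners of SOX10, and ZEB2 is a repressor that removes inhibitors of myelination.

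Of the 10 factors, 4 fell in mutants relative to controls (Pou3f1, Pou3f2, Sox10 and Egr2), 1 rose slightly (Yy1), and Nab1, Nab2, Nfatc3, Nfatc4 and Zeb2 did not pass the test. A gene was said to rise or fall at an adjusted p at or under 0.05 in limma's moderated test on log2(value + 1), with Benjamini-Hochberg adjustment over all 25802 genes. By that limit 35.0% of all tested genes changed, with 16.0% lower and 19.0% higher, so that 5 of 10 factors stood against about 1 gene in 3 overall. The study's own limit, an unadjusted p at or under 0.05 with a change of at least 2-fold, was passed by Pou3f1 and Pou3f2, both lower, where 24.2% of all genes passed it and 10.4% passed it as lower. The 3 mutant values lay below the 3 control values for 4 factors, and above them for 1, where 23.3% of all genes were separated as lower and 25.9% as higher. The median log2 fold change of the 10 factors was 0.04, beside 0.03 over all tested genes.

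The 6 libraries held between 50938349 and 78250094 reads on genes. The targeted gene, Adar, was higher in the libraries labelled mutant. It had 11768, 9311 and 9773 normalised reads there, against 1602, 2066 and 1133 in those labelled control, with a log2 fold change of 2.72 ± 0.20 (SE, adjusted p = 4.1e-05 by limma). The table has 1 value for the whole gene, so reads from the deleted segment cannot be told from the rest, and directions below are those of the libraries labelled mutant and control. Marker lists of several cell types moved with the groups. The summed level of 6 SC markers was 29672 to 34434 in controls and 14205 to 17767 in mutants, with 4 of the 6 lower (S100b, Gfra3, Erbb3 and Foxd3), no call for Cdh19 and Fabp7, and none at 0. The sum was lower in every mutant for 5 fibroblast markers (1777657 to 2106505 against 718507 to 1061209, 2 of 5 fell) and for 4 erythroid markers (50331 to 70101 against 4822 to 14719, all 4 fell). It was also lower for 6 macrophage markers (12907 to 16636 against 10594 to 12805, 2 rose and 2 fell) and 4 perineurial markers (16524 to 19954 against 13634 to 15714, 1 rose and 1 fell). It was higher in every mutant for 6 endothelial markers (14859 to 22010 against 22757 to 29503, 2 rose) and 4 neuron markers (1829 to 2143 against 4446 to 4794, 2 rose). The same held for 5 skeletal muscle markers (3659 to 20399 against 24019 to 185107, 4 rose, mutant replicate 3 highest) and 6 lymphocyte and NK cell markers (106 to 227 against 356 to 487, 3 rose, Cd8a at 0 in every control). Pericyte and adipocyte sums overlapped, with no marker called. In bulk nerve, fewer cells of a type and less RNA per cell cannot be told apart. The part of these shifts in the results below was not tested.

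**Figure D1:**
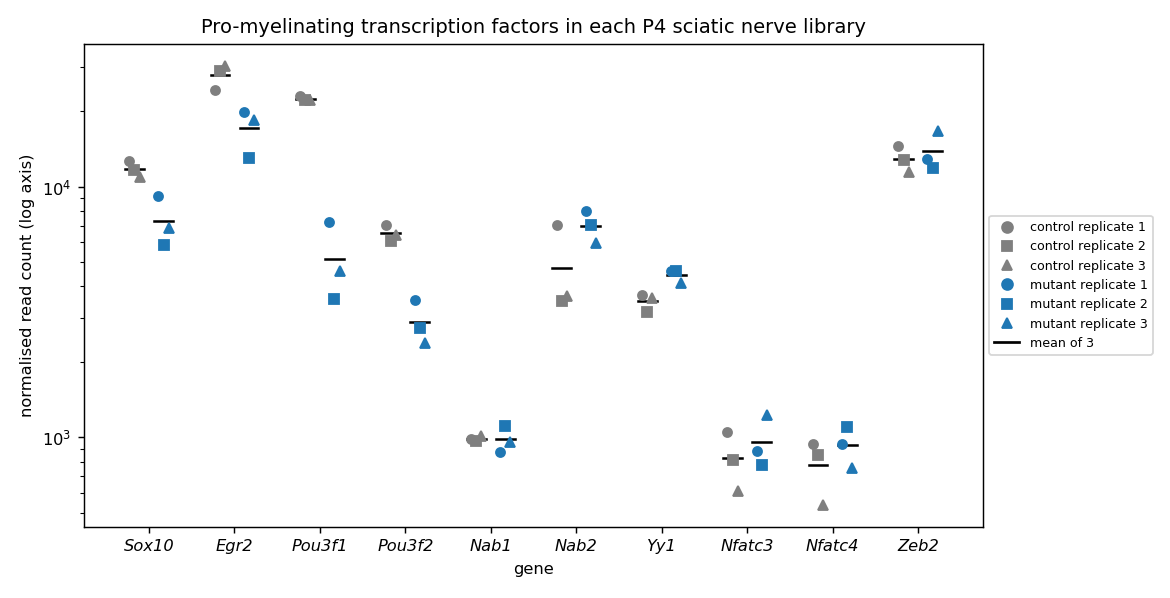
Normalised read counts (log axis) of the 10 factors in each P4 sciatic nerve library, with control replicates in grey, mutant replicates in blue and a black bar at the mean of 3. The mutant points of Sox10, Egr2, Pou3f1 and Pou3f2 lie below every control point, those of Yy1 lie above, and the groups overlap for the other 5 genes.

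The largest change among the factors was that of Pou3f1, a POU domain factor whose timely expression sets the onset of myelination. Pou3f1 (GSMG0027043, chr4:124657646-124660657, + strand, a single-exon coding gene in GENCODE) stood at 23016, 22215 and 22124 normalised reads in controls and at 7224, 3566 and 4614 in mutants. The controls lay within a narrow band, and the highest mutant was still under the lowest control. The mean was 22452 ± 491 (SD, n = 3) in controls and 5135 ± 1884 (SD, n = 3) in mutants, a log2 fold change of -2.19 ± 0.22 (SE, adjusted p = 0.000165 by limma). Of all tested genes, 4.2% had a lower log2 fold change.

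Pou3f2, the closest relative of Pou3f1 in SCs with a partly overlapping role, fell less. Pou3f2 (GSMG0051024, chr4:22482095-22488366, - strand, also a single-exon coding gene) had 7050, 6049 and 6426 normalised reads in controls and 3542, 2729 and 2387 in mutants. The groups did not overlap. Means were 6508 ± 506 and 2886 ± 594 (SD, n = 3 each), and the log2 fold change was -1.19 ± 0.15 (SE, adjusted p = 0.000506 by limma). Both POU genes passed the test under each of the 17 alternative settings, between -2.47 and -1.96 for Pou3f1 and between -1.35 and -1.03 for Pou3f2.

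Sox10 and Egr2, the central pair of the pathway, fell by similar amounts that stayed under 2-fold. Sox10 (GSMG0014239, chr15:79154909-79165240, - strand, 4 or 5 exons in its GENCODE transcripts) had 12618, 11719 and 10920 normalised reads in controls and 9171, 5838 and 6828 in mutants. Mutant replicate 1 came nearest to the controls without reaching them. Means were 11752 ± 850 and 7279 ± 1712 (SD, n = 3 each), and the log2 fold change was -0.71 ± 0.16 (SE, adjusted p = 0.00874 by limma). Egr2 (GSMG0003109, chr10:67537868-67542187, + strand, 2 or 3 exons) had 24383, 28903 and 30362 normalised reads in controls and 19843, 13079 and 18551 in mutants. Its groups were separate as well, with mutant replicate 2 lowest. Means were 27883 ± 3118 and 17158 ± 3591 (SD, n = 3 each), and the log2 fold change was -0.72 ± 0.16 (SE, adjusted p = 0.00989 by limma). About 21.0% of all tested genes had a lower log2 fold change than Sox10, so that neither change was unusual in size for this table. With limma's variance prior held constant instead of following the expression level, neither gene passed (adjusted p = 0.055 for Sox10 and 0.0593 for Egr2), although both passed in the other 16 settings. An unnamed gene on the opposite strand shares 2009 bases with Egr2, at a mean of 182 normalised reads. It was lower as well (log2 fold change -1.96, adjusted p = 0.017 by limma).

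The sequences before Egr2 and Pou3f2 are shown as those of the 2 lowered factors with a promoter window. Of the 10 factors, 8 had an entry among the RefSeq promoter windows (GRCm38.p6), Sox10 and Pou3f1 not among them. For each gene the window nearest to the start in the deposited table was used, 1 of 5 for Egr2, 1 of 4 for Zeb2, 1 of 2 for Nfatc3 and the only one for the other genes. Each sequence covers the 250 bases before that start, 5′ to 3′ on the gene's strand, and capitals mark matches to CCAAT on either strand and to the CArG box, the site type known to bind serum response factor.

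Egr2 (chr10:67537619-67537868, + strand): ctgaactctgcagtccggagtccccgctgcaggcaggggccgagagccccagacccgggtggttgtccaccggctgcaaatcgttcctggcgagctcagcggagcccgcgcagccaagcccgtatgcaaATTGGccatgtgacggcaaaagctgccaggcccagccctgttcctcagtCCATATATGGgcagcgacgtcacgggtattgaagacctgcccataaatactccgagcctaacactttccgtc

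Pou3f2 (chr4:22488367-22488616, - strand): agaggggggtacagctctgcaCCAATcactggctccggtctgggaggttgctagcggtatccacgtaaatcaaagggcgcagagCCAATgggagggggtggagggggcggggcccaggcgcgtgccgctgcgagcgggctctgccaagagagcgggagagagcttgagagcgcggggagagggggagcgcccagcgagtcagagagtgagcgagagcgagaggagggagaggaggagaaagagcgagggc

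The Egr2 window held 1 CCAAT match, on the opposite strand with its first base at -121 from the start, and 1 CArG box at -72. Of the 5 windows of Egr2, which partly overlap, 4 held a CArG box and 3 a CCAAT match. CCAAT matches lay at -229 and -166 before Pou3f2. CCAAT occurred in 33.8% of all 32851 windows of this length, whereas a CArG box, a motif added after the letters before Egr2 had been seen, occurred in 1.47%. Neither window, nor the one used for any other of the 8 factors, held ACAAAG or AACAAT (core letters bound by SOX factors), CACCTG (ZEB factors), GCCATNTT (YY1) or TATAAA on either strand. Only these exact letters were sought, so that variants of the sites were not counted and may be present. Among the windows not used, 1 of Zeb2 held ACAAAG, and the others held none of these. They occurred in 16.5%, 9.42%, 17.2%, 3.91% and 12.4% of all windows. GGAAA, the NFAT core, had 1 match each before Egr2 and Nfatc3, 3 each before Nfatc4 and Zeb2, and a match in 55.6% of all windows. It is left in lower case.

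**Figure D2:**
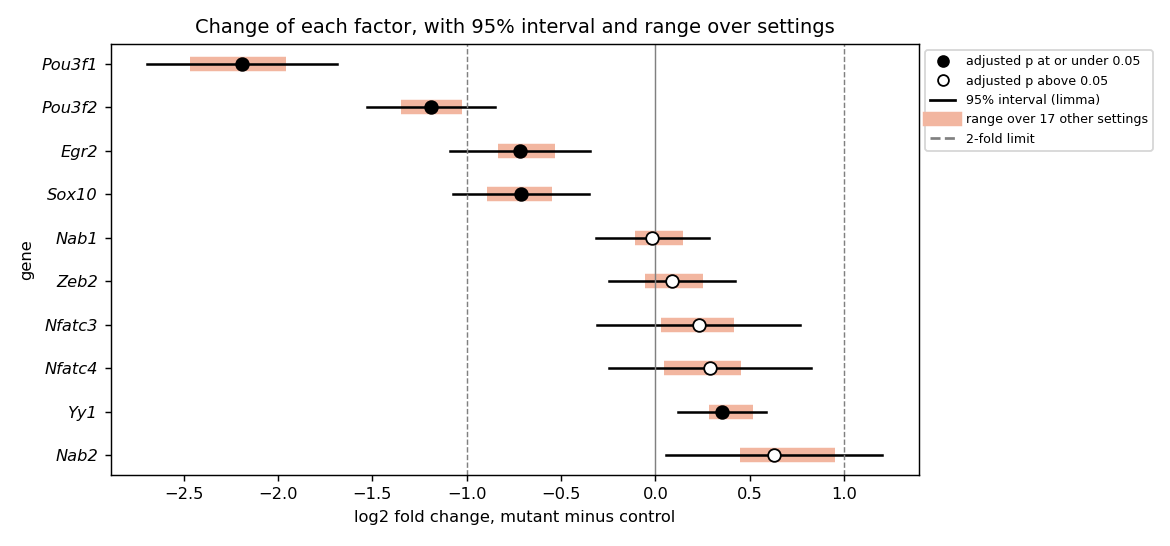
Log2 fold change (mutant minus control) of each factor, ordered from lowest to highest, with the 95% interval of limma as a line and the range over 17 other settings as a bar. Filled points (Pou3f1, Pou3f2, Egr2, Sox10 and Yy1) have an adjusted p at or under 0.05, and the points of Pou3f1 and Pou3f2 lie beyond the dashed 2-fold limit.

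NAB1 and NAB2 bind EGR proteins and either help or restrain them, and neither gene passed the test. Nab1 (GSMG0001564, chr1:52455850-52500448, - strand) had 986, 968 and 1011 normalised reads in controls and 877, 1111 and 957 in mutants. The groups overlapped. The log2 fold change was -0.02 with a 95% interval from -0.31 to 0.28 (adjusted p = 0.936 by limma), so that the interval leaves no room for a 2-fold change in either direction. Nab2 (GSMG0004750, chr10:127660919-127666703, - strand) had 7016, 3513 and 3677 normalised reads in controls and 7985, 7026 and 5955 in mutants. Control replicate 1 stood with the mutants, and the other control values were lower. The log2 fold change was 0.63 ± 0.25 (SE), with a 95% interval from 0.05 to 1.20, an unadjusted p of 0.0354 and an adjusted p of 0.0855 by limma. Without control replicate 1 it was 0.95 and passed (adjusted p = 0.00286). Nab2 shares 69 bases with Stat6 on the opposite strand, which had a mean of 6314 normalised reads, a log2 fold change of 0.16 and an adjusted p of 0.27 by limma. Whether reads were counted by strand is not given in the sources used here.

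Exact matches to 2 forms of the EGR binding site stood before Nab1 and before none of the other 7 factors in any of their windows. Variants with other letters were not sought and may be present. The matches are shown as 30-base stretches on the gene's strand, with GCGTGGGCG (the first 2, of which the first is on the opposite strand) or GCGGGGGCG (the third) in capitals.

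Nab1 at -141 (chr1:52500570-52500599, - strand): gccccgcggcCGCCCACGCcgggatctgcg

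Nab1 at -109 (chr1:52500538-52500567, - strand): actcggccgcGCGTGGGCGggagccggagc

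Nab1 at -38 (chr1:52500467-52500496, - strand): gcggggcgggGCGGGGGCGgcggaggtggc

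GCGTGGGCG was found in 0.536% of all 32851 windows and GCGGGGGCG in 2.57%. GENCODE has Nab1 start further upstream, so these stretches lie before the start in RefSeq and within the gene in GENCODE. The windows used for Egr2, Nab2, Yy1 and Nfatc4 also lie within those genes in GENCODE. These letters are present in the reference before a gene whose level did not pass the test, and binding was not measured.

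Yy1, a zinc finger factor that can activate or repress, was the 1 factor that rose. Yy1 (GSMG0008522, chr12:108792976-108816632, + strand, 5 exons) had 3707, 3158 and 3599 normalised reads in controls and 4593, 4596 and 4146 in mutants. Every mutant value was above every control value. The means were 3488 ± 291 and 4445 ± 259 (SD, n = 3 each), and the log2 fold change was 0.35 ± 0.10 (SE, adjusted p = 0.0275 by limma). The rise rested on the settings. It stayed positive in all 17 alternatives and passed in 10 of them. It did not pass with libraries scaled to the same 75th percentile (0.28, adjusted p = 0.0619), without control replicate 2 (0.28, adjusted p = 0.114), without control replicate 3 (0.38, adjusted p = 0.0597), or without mutant replicate 1 or 2 (0.33 each, adjusted p = 0.0738 and 0.0677). The other 2 settings in which it did not pass were the constant variance prior (adjusted p = 0.106) and the replicate block. An unnamed gene on the opposite strand covers all of Yy1, at a mean of 660 normalised reads, a log2 fold change of -0.46 and an adjusted p of 0.0832 by limma.

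NFATC3 and NFATC4 enter the nucleus when calcineurin removes their phosphates, a step that RNA levels do not report. Nfatc3 (GSMG0037740, chr8:106058840-106130537, + strand) had 1045, 813 and 611 normalised reads in controls and 882, 773 and 1223 in mutants. Nfatc4 (GSMG0011613, chr14:55824795-55833943, + strand) had 941, 848 and 537 in controls and 939, 1100 and 756 in mutants. The groups overlapped for both, and the spread within a group was as wide as the gap between the means. The log2 fold change of Nfatc3 was 0.23 (95% interval -0.31 to 0.77, adjusted p = 0.485 by limma). That of Nfatc4 was 0.29 (95% interval -0.24 to 0.82, adjusted p = 0.371 by limma). Neither passed with any library left out, and both values lay lowest without control replicate 3 (0.031 and 0.044) and highest without control replicate 1 (0.42 and 0.45).

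Zeb2, also called Sip1, encodes a zinc finger and homeodomain repressor that recruits the NuRD complex. Zeb2 (GSMG0022776, chr2:44983512-45117442, - strand) had 14575, 12758 and 11489 normalised reads in controls and 12932, 11837 and 16740 in mutants. Mutant replicate 3 was the highest library, and the other mutants lay inside the control range. The log2 fold change was 0.09, with a 95% interval from -0.24 to 0.42 and an adjusted p of 0.674 by limma. The intervals of Nab1, Nfatc3, Nfatc4 and Zeb2 exclude a 2-fold change in either direction, while smaller changes remain possible at this number of animals. In the table, 8 genes on the same strand lie within or across Zeb2, the highest of them an unnamed gene with a mean of 1652 normalised reads, and Zeb2os lies on the opposite strand with a mean of 176.

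Ratios within a library do not depend on the scaling between libraries, and they were used to ask whether related factors changed alike. For 7 pairs, log2 ratios were compared by an exact two-sided permutation test, which cannot go below p = 0.1 with 3 libraries against 3, so that no pair could pass. The Pou3f1/Pou3f2 log2 ratio was 1.71, 1.88 and 1.78 in controls and 1.03, 0.39 and 0.95 in mutants. The groups were separate, and the mean difference was -1.0 (exact p = 0.1, adjusted p = 0.175). Pou3f1 was also lower against Sox10, by a difference of -1.48, and Pou3f2 against Sox10 by -0.48, with separate groups and the same p for both. The Egr2/Sox10 log2 ratio was 0.95, 1.30 and 1.48 in controls and 1.11, 1.16 and 1.44 in mutants. Those groups overlapped almost fully, and the difference was -0.003 (exact p = 1, adjusted p = 1). Nab1/Nab2 differed by -0.64 (exact p = 0.3, adjusted p = 0.42) and Nfatc3/Nfatc4 by -0.06 (exact p = 0.9, adjusted p = 1), each with overlapping groups.

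**Figure D3:**
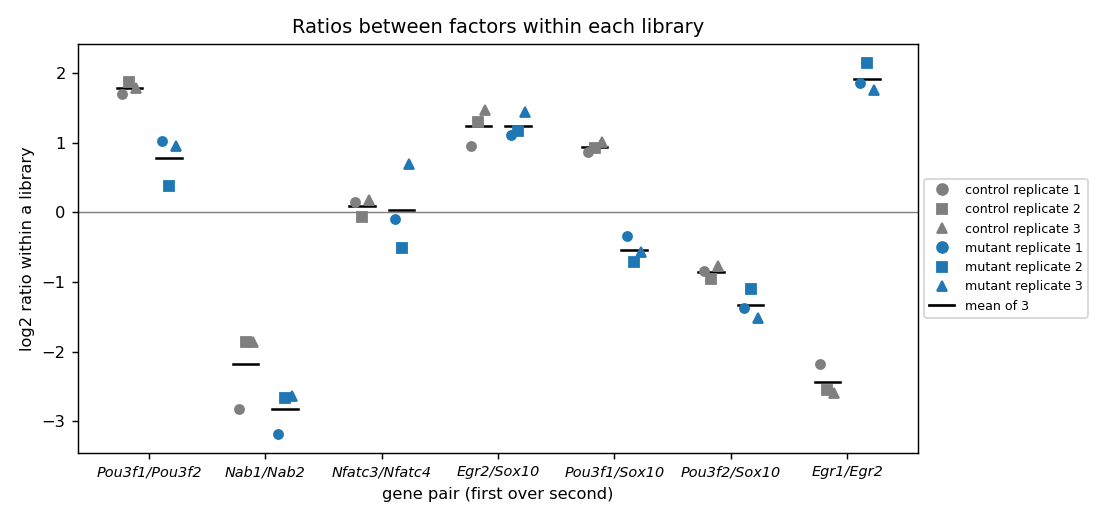
Log2 ratio of 7 gene pairs within each library, with control replicates in grey, mutant replicates in blue and a black bar at the mean of 3. Pou3f1/Pou3f2, Pou3f1/Sox10, Pou3f2/Sox10 and Egr1/Egr2 are separate between the groups, whereas Egr2/Sox10 has the same mean in both.

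The paralogs of the factors were a list of 13 genes, of which 11 were found and 10 tested. Of those 10, 4 rose, 1 fell and 5 did not pass (19.0% and 16.0% of all tested genes rose and fell), with a median log2 fold change of 0.60 beside 0.03 for all genes. With libraries scaled to the same total, 6 were higher and 0 lower by the same test, beside 24.5% and 12.0% of all tested genes. Egr1, an immediate early gene of immature and proliferating SCs that shares the DNA site of EGR2, had 5398, 4949 and 5005 normalised reads in controls and 72139, 58212 and 62602 in mutants. The log2 fold change was 3.65 ± 0.10 (SE, adjusted p = 8.4e-07 by limma), opposite in direction to Egr2. The Egr1/Egr2 log2 ratio accordingly went from a mean of -2.44 in controls to 1.92 in mutants (exact p = 0.1, adjusted p = 0.175). Egr4 had no read in any control library and 77.1, 75.3 and 39.6 normalised reads in mutants, which is at least 19.3-fold higher when 3 reads are assumed for each control library. Egr3 did not pass (log2 fold change 0.26, adjusted p = 0.219 by limma), except without mutant replicate 3 (0.41, adjusted p = 0.0491). Pou3f4, known from the developing brain and ear, rose from 57.7, 20.8 and 32.9 to 138, 124 and 138 normalised reads, a log2 fold change of 1.93 (adjusted p = 0.00894 by limma), where Pou3f1 and Pou3f2 fell. Sox8, of the same SOX group as Sox10, was lower by the test (-1.13, adjusted p = 0.0438 by limma), but its control replicate 3 (578 normalised reads) and mutant replicate 1 (578) met. Without control replicate 1 the Sox8 value was -0.76 and did not pass (adjusted p = 0.116), and it did not pass without control replicate 2 (0.067) or without mutant replicate 2 or 3 (0.135 and 0.139) either. Sox9 did not pass (0.28, adjusted p = 0.169 by limma). Zeb1, which shares the DNA site of ZEB2, rose from 1243, 775 and 755 to 1624, 1570 and 2201 normalised reads, a log2 fold change of 0.98 (adjusted p = 0.00914 by limma). Nfatc1 (0.06), Nfatc2 (0.64) and Nfat5 (0.56) did not pass, with adjusted p values of 0.722, 0.0825 and 0.0879 by limma. Nfatc2 passed without mutant replicate 2 (0.81, adjusted p = 0.0495) and Nfat5 without control replicate 1 (0.77, adjusted p = 0.024). Pou3f3 and Yy2 had no row by symbol, and Zfp42 had no reads.

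The upstream signals were a list of 10 genes from ligand and receptor to the nucleus. Of these, 4 rose and 4 fell, beside 19.0% and 16.0% of all tested genes, with a median log2 fold change of -0.09. Adgrg6, the adhesion receptor whose cAMP signal induces Pou3f1 and Egr2, had 1196, 1215 and 1350 normalised reads in controls and 961, 791 and 679 in mutants. Its groups were separate, and it fell by 0.64 on the log2 scale (adjusted p = 0.0124 by limma). Within Adgrg6, an unnamed gene of 535 bases on the opposite strand had a mean of 21794 normalised reads and did not pass (-0.15, adjusted p = 0.181 by limma), so the Adgrg6 value is uncertain where reads could be split between them. Erbb2, part of the neuregulin receptor, fell by 0.54 (adjusted p = 0.0166), and Mapk3, the ERK1 kinase, fell by 0.80 (adjusted p = 0.000702). The Erbb2 fall did not pass without control replicate 2 or 3 (adjusted p = 0.0636 and 0.061) or without mutant replicate 2 or 3 (0.0544 and 0.0611). Nrg1, a growth factor read by ERBB2 and ERBB3, had 0, 15.1 and 7.6 normalised reads in controls and 957, 871 and 1121 in mutants. That is a log2 fold change of 7.56 (adjusted p = 0.000403 by limma), a fitted value that depends on the pseudocount because a control was at 0. Over the fits that left out a library, the Nrg1 value ranged from 6.4 to 8.4. Which cells of the nerve made the Nrg1 RNA was not tested. Creb1, the cAMP response factor, rose by 0.89 (adjusted p = 0.0177) and Map2k1 by 0.52 (adjusted p = 0.0158). Neither passed without control replicate 2 (adjusted p = 0.0606 and 0.0522) or without mutant replicate 3 (0.0682 and 0.0571). Creb1 also missed the limit without control replicate 3 (0.0513), and Map2k1 without mutant replicate 1 (0.0554). The count of called upstream genes went from 8 to 3 without control replicate 2, to 4 without control replicate 3 and to 3 without mutant replicate 3.

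Of calcineurin and its regulators, 9 genes were found and 8 tested. 1 rose and 2 fell, a share near the 35.0% of all tested genes, with a median log2 fold change of -0.02. Ppp3ca, a catalytic subunit, fell by 0.35 (adjusted p = 0.0481 by limma), a call lost in 5 of the 6 fits that left out 1 library, all but the one without mutant replicate 2 (adjusted p from 0.0764 to 0.141). The regulatory subunit Ppp3r1 (-0.07, adjusted p = 0.503) and the catalytic subunits Ppp3cb (0.25, adjusted p = 0.0588) and Ppp3cc (0.02, adjusted p = 0.891) did not pass, and Ppp3r2 had no reads. Rcan1, an inhibitor that calcineurin and NFAT themselves induce, rose from 3223, 2996 and 3337 to 5018, 4455 and 4027 normalised reads (log2 fold change 0.49, adjusted p = 0.00865 by limma, and 0.0533 with the constant variance prior). Rcan3 fell by 0.76 (adjusted p = 0.0206), and did not pass without control replicate 1 or 2 (adjusted p = 0.0605 and 0.0676) or without mutant replicate 3 (0.0582), so that 1 gene of the list was called in each of those 3 fits. Rcan2 (0.48, adjusted p = 0.325) and Cabin1 (-0.07, adjusted p = 0.69) did not pass.

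The NuRD complex, a histone deacetylase and chromatin remodeller used by ZEB2 and by NAB proteins, had 13 tested subunits. 1 rose and 2 fell (23.1% called, beside 35.0% of all tested genes), with a median log2 fold change of -0.06. Chd4, its ATPase, fell from 40633, 42493 and 39892 to 29096, 25541 and 23238 normalised reads (-0.67, adjusted p = 0.0014 by limma). Mta2 fell by 0.28 (adjusted p = 0.0403) and Mbd2, a reader of methylated DNA, rose by 0.52 (adjusted p = 0.00269). The Mta2 fall did not pass without control replicate 2 or 3 (adjusted p = 0.13 and 0.124) or without mutant replicate 2 or 3 (0.0797 and 0.109). Without control replicate 1, 6 NuRD subunits passed (2 higher and 4 lower), and 5 passed with DESeq2 (2 higher and 3 lower). With libraries scaled to the same total 5 passed as well, but 4 were higher and 1 lower, so that the balance of directions depended on the scaling. Of 8 other chromatin and Mediator partners, Eed, a Polycomb subunit, rose by 0.98 (adjusted p = 0.000633) and Med12, a Mediator subunit that works with SOX10, fell by 0.41 (adjusted p = 0.00718, and 0.0577 with the constant variance prior), and the other 6 did not pass, with a median log2 fold change of 0.08 over the 8. That is 25% called, beside 35.0% of all tested genes.

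Of 6 genes that ZEB2 is known to hold down, Hes1 rose and Ednrb fell, so that 2 of 5 tested genes were called, a share near the 35.0% of all genes. Hes1, a Notch effector, went from 1340, 719 and 678 to 5233, 4888 and 3935 normalised reads, a log2 fold change of 2.42 (adjusted p = 0.000199 by limma). Ednrb, the endothelin receptor of immature SCs, went from 47959, 45575 and 53296 to 9635, 12690 and 9645, a log2 fold change of -2.21 (adjusted p = 1.1e-05 by limma). Hey2, a direct target in SCs, varied widely, at 301, 83.2 and 74.8 in controls and 180, 1376 and 586 in mutants (2.08, adjusted p = 0.0628), and passed without control replicate 1 (2.72, adjusted p = 0.0316) or without mutant replicate 1 (2.85, adjusted p = 0.0188). It was lowest, at 1.39 and without a call, without mutant replicate 2. Hey1 (0.02, adjusted p = 0.915) and Notch1 (-0.003, adjusted p = 0.989) did not pass, and Hes5 was too low to test. The median of the 5 tested genes was 0.02.

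The targets of SOX10 and EGR2 had lower log2 fold changes than most of the factors, a difference that was not tested. Of 15 myelin, gap junction and sterol genes, 14 fell (16.0% of all tested genes), 13 of the 15 passed the 2-fold limit as lower (10.4%), and all 15 had every mutant value below every control value (23.3%), with a median log2 fold change of -3.04. Since the list was chosen with earlier results of these data known, its direction is not independent evidence. Mbp, myelin basic protein, fell most, from 1369737, 1533898 and 1707837 to 137354, 13210 and 42987 normalised reads (-5.16, adjusted p = 0.00069 by limma). Mag, a myelin adhesion molecule, fell by 3.84 on the log2 scale (adjusted p = 0.00379), and Pmp22, a membrane protein of compact myelin, fell by 3.58 (adjusted p = 0.000463). Pmp2, a fatty acid carrier of myelin, was the 1 target without a call (-1.06, adjusted p = 0.0977). The median of the targets lay below the log2 fold change of Pou3f1, the lowest of the factors.

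Within the mutants, nearly all targets had the same order of the libraries, and so did 3 of the 10 factors. Mutant replicate 1 was highest and mutant replicate 2 lowest for Sox10, Egr2 and Pou3f1, and for 14 of the 15 targets, all but Mia. That is 30% of the factors and 93.3% of the targets, beside 18.4% of all tested genes and 29.7% of those that fell. The order was not set in advance, so it is a description only. Pou3f2 did not follow it, since mutant replicate 3 was its lowest library. The range over the mutants was much wider for the targets, for example 13210 to 137354 normalised reads for Mbp against 5838 to 9171 for Sox10.

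**Figure D4:**
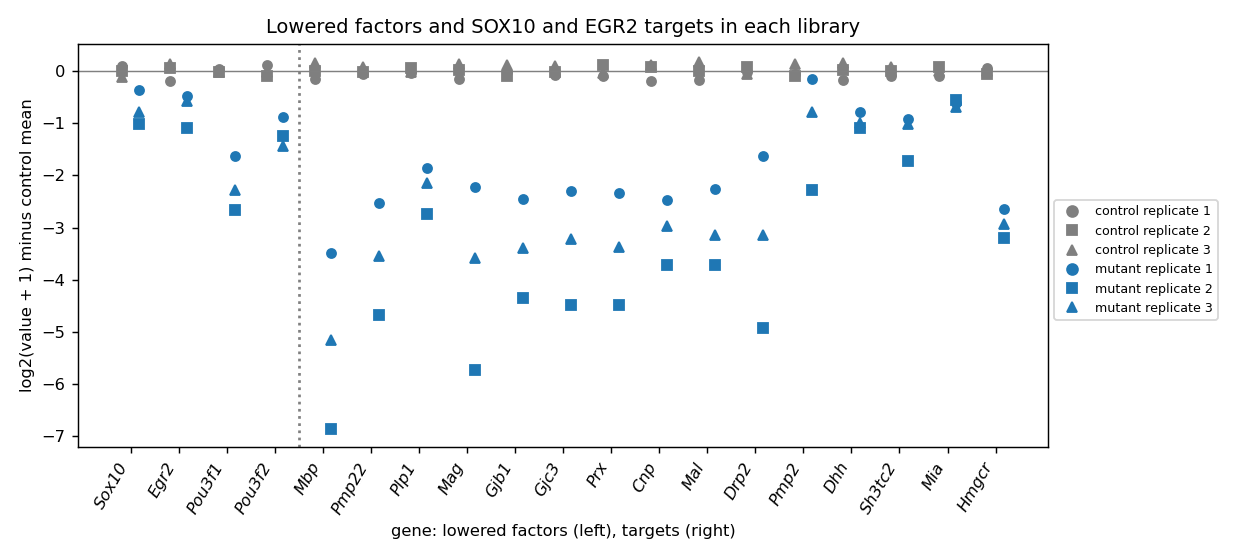
log2(value + 1) of each library minus the mean of the controls, for the 4 lowered factors (left of the dotted line) and the 15 targets of SOX10 and EGR2 (right), with controls in grey and mutants in blue. Most targets spread from mutant replicate 1 (highest) to mutant replicate 2 (lowest), far below Sox10, Egr2 and Pou3f2.

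Genes whose 6 values ran most like those of a lowered factor were sought among 7467 named genes with a mean of at least 1000. Likeness was the mean absolute difference between log2 values, each gene centred on its own mean over the 6 libraries. The nearest to Pou3f1 was St6gal1, a sialyltransferase (0.05, with 6086, 5951 and 6538 normalised reads in controls and 1896, 954 and 1288 in mutants), followed by Ptpdc1 (0.07) and Tmem189 (0.078). The nearest to Pou3f2 were Wdr6 (0.037), Rab7b (0.067) and Ano8 (0.077). Gulp1 (0.056), Pik3ip1 (0.066) and Dopey2 (0.067) came nearest to Sox10, and Igsf11 (0.061), Uap1l1 (0.065) and Vps28 (0.066) to Egr2. No gene appeared for more than 1 factor, and a common pattern over 6 libraries of 2 groups is a description only.

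**Figure D5:**
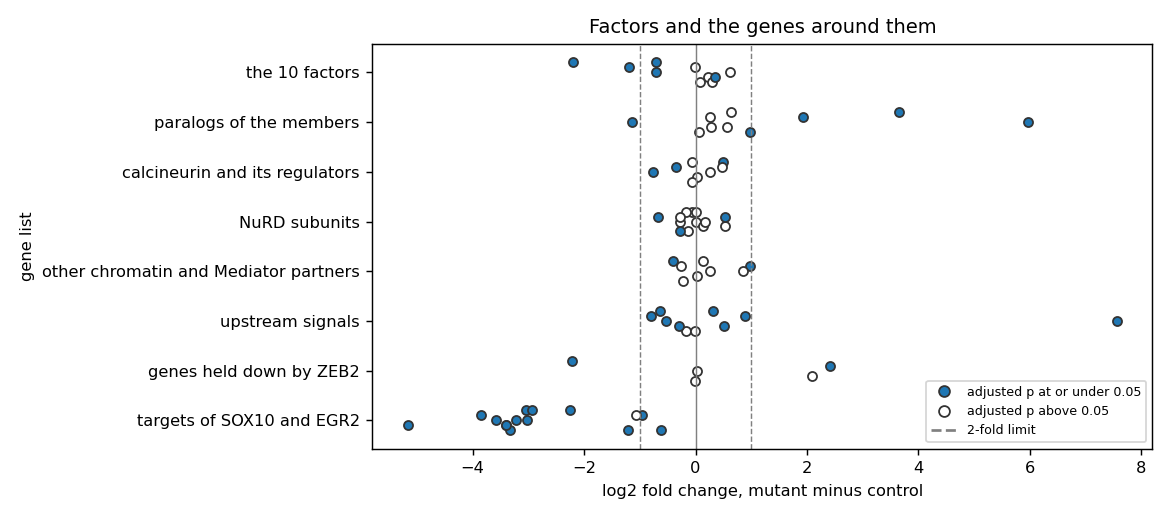
Log2 fold change (mutant minus control) of the 10 factors and of the tested genes of 7 lists around them, each point a gene, filled where the adjusted p is at or under 0.05, with dashed lines at 2-fold. The targets of SOX10 and EGR2 lie between -5.16 and -0.62, all to the left of 0, whereas the other lists have points on both sides.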

How the data were processed

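RNA-seq libraries from poly-A+ RNA of 6 P4 sciatic nerves (3 control and 3 mutant) were oriented and paired-end. The authors mapped reads with STAR 2.4.0 on mm10 and counted reads on constitutive regions of FAST DB genes. The deposited signal per gene and library is the count divided by a DESeq size factor, called here a normalised read count. Division by the value of 1 read in each library (0.727 to 1.27) gave whole numbers for 100% of values within 0.01, and edgeR and DESeq2 were run on those reads as alternatives.

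log2(value + 1) was fitted with limma 3.58.1 (lmFit, then eBayes with trend, R 4.3.3) as mutant minus control over the 25802 genes with a mean of at least 10 in at least 1 group. Replicates were separate animals by the series' design text, and 3 per group limit the precision. The fits were also run on simulated data in which few genes changed, each by more than most factors here. That run does not bear on small changes. edgeR 4.0.16 called 8387 genes and DESeq2 1.42.0 called 9654, beside 9040 by limma. The members and gene lists were chosen with earlier results of these data known. All factors, paralogs, calcineurin genes and ZEB2 genes were named, and of each other list up to 3 rising and 3 falling genes. The promoter windows were RefSeq's (GRCm38.p6) and exon counts came from GENCODE. Alternatives covered pseudocounts of 0.1 and 10, other filters, scalings, models, a replicate block and each library left out. The study's filter on expression over intergenic background was not applied, since those reads were not used here. Same-numbered control and mutant libraries did not deviate together (correlations of -0.06, -0.06 and 0.01), so the main fit has no pairing. A listed target gene is not reported here and was left out of its list.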

Additional observations from a re-analysis of the deposited data

How the results depend on the processing

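Each value was recomputed under 17 alternatives, 11 other settings and 6 fits that each left out 1 library. Pou3f1 and Pou3f2 passed in all 17 and were the only factors past 2-fold in each, and Sox10 and Egr2 passed in 16. Of the listed genes named in the text, 37 were followed in this way, without Pmp2 and Mia. In their 629 comparisons, 553 kept direction and call, 48 lost the call, 9 gained it and 19 changed sign. The causes were not tested.

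Held at a constant variance prior (eBayes without trend), 2 of 10 factors and 27.1% of all tested genes passed, with Sox10 at -0.71, Egr2 at -0.72 and Yy1 at 0.35 losing the call, and the called genes were 1 of calcineurin, 1 of the other chromatin partners and 3 of the upstream signals. Among named genes Sox8, Ppp3ca, Rcan1, Mta2, Med12, Erbb2, Creb1 and Map2k1 lost their calls there (adjusted p = 0.12, 0.156, 0.0533, 0.154, 0.0577, 0.0774, 0.0591 and 0.0712). Rescaling to the same total moved the median log2 fold change of all genes to 0.20 and the share of calls that were higher to 67.1% (54.3% in the reported fit). There Sox8, Ppp3ca, Rcan3, Mta2 and Erbb2 lost their calls (adjusted p = 0.0812, 0.231, 0.0536, 0.31 and 0.0535), Nfatc2, Nfat5 and Ppp3cb gained one (0.0401, 0.0449 and 0.0096), Nab2 was called at 0.79, 5 NuRD subunits were called, and 4 uncalled genes turned positive (Nab1 at 0.15, Ppp3r1 at 0.093, Cabin1 at 0.097 and Notch1 at 0.16). Rescaling to the same 75th percentile left Yy1 at 0.28 without a call and turned the uncalled Nfatc1 to -0.0040, Ppp3cc to -0.044 and Hey1 to -0.044. Notch1 was above 0 with TMM factors (0.0030), edgeR (0.013) and DESeq2 (0.0043), and DESeq2 called 5 NuRD subunits. Sox8, Ppp3ca and Mta2 lost their calls with edgeR (adjusted p = 0.0534, 0.0653 and 0.0635), Sox8 and Ppp3ca with a pseudocount of 0.1 (0.0565 and 0.0559), and Ppp3ca and Mta2 without a filter on low values (0.0641 and 0.0631). Ppp3cb gained a call with the filter at a mean of at least 50 (0.25, adjusted p = 0.0449 by limma).

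With the replicate block, which joins libraries that share only a number, 7730 genes were called in place of 9040, Nab2 gained a call at 0.63 and Yy1 lost it at 0.35. Ppp3ca and Mta2 lost theirs too (adjusted p = 0.0816 and 0.107). Not every library correlated best with its own number.

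Over the 6 fits without 1 library, 4 to 6 factors and 26.1% to 32.0% of all tested genes were called. Nab2 ranged from 0.45 to 0.95, Yy1 from 0.28 to 0.40, Nfatc3 from 0.031 to 0.42, Nfatc4 from 0.044 to 0.45, Nab1 from -0.11 to 0.061 and Zeb2 from -0.058 to 0.19. Among uncalled genes, Nfatc1 ranged from -0.038 to 0.12, Ppp3cc from -0.0076 to 0.070, Cabin1 from -0.16 to 0.028, Hey1 from -0.11 to 0.15 and Notch1 from -0.14 to 0.084. Among targets, Mbp ranged from -6.0 to -4.3, Mag from -4.6 to -2.9 and Pmp22 from -4.1 to -3.0. The log2 ratio differences ranged from -0.39 to 0.21 for Nfatc3/Nfatc4 and from -0.15 to 0.11 for Egr2/Sox10. Called genes ranged from 1 to 3 for calcineurin, 2 to 6 for NuRD, 3 to 7 for upstream signals and 14 to 15 for targets.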
